A study of Mus musculus with 27 samples.

Results

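Doxycycline (dox) switched on the OSKM reprogramming factors (Oct4, Sox2, Klf4 and c-Myc) in mouse embryonic fibroblasts (MEF). With dox, some H3K4me3 peaks of untreated wild-type (WT) fibroblasts had no counterpart in WT cells but had one in cells lacking Utx. There were 403 such peaks among the 18017 H3K4me3 peaks of untreated WT MEF, and among 234651 peaks in all 19 lists of the series. They are called members here. A peak of untreated WT MEF was a member if it overlapped, by at least 1 bp, a peak of Utx-KO MEF with dox and no peak of WT MEF with dox. The members were thus chosen by the presence or absence of peaks in these 3 H3K4me3 lists, which is given as a description and not as a finding.

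H3K4me3, trimethylation of lysine 4 of histone H3, is found at gene promoters that are active or poised for activity. H3K27me3 is laid down by Polycomb proteins at silent genes, and UTX is an enzyme that removes it. During reprogramming to pluripotency the fibroblast programme has to be shut down before the pluripotency network is established, and loss of H3K4me3 from fibroblast promoters belongs to the early part of that process.

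ChIP-seq, the sequencing of DNA precipitated with an antibody to a chromatin protein, was used, and 1 peak list per antibody sample was deposited. The fibroblast states were Utx-KO (Utx-/Y) MEF with dox, WT (Utx+/Y) MEF with dox, untreated Utx-KO MEF and untreated WT MEF. All fibroblasts, the untreated ones included, were of the V19-OSKM strain, and the labels state that MEF were grown in 2i/LIF medium with or without dox. The pluripotent states were 2 clones of aberrant iPS cells from Utx-KO V19-OSKM MEF, labelled as improperly reprogrammed and not on dox, Utx-KO V6.5 embryonic stem cells (ESC) and WT V6.5 ESC. The length of dox treatment is not given in the sources used here.

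Each state and mark had 1 library, with the iPS clones as the sole exception, so a difference between states has no replicate check and none was tested. Percentages of peaks carry Wilson 95% intervals, which cover counting error over peaks only and not the spread between cultures. The 8 H3K4me3 lists held 16157 to 28232 peaks. Total width was 52.8 Mb in Utx-KO MEF with dox and 52.0 Mb in WT MEF with dox, against 22.3 Mb in untreated Utx-KO MEF and 23.6 Mb in untreated WT MEF. The peak score is the authors' own and, in the form the peak caller MACS writes it, increases as the p-value of the peak falls. It depends on depth and so ranks peaks within a list. Its lowest value was 50, and it saturated near 3100. Read depth was unknown, and the labelled cell types were not checked against marker genes because the peaks could not be assigned to genes.

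Of the 18017 H3K4me3 peaks of untreated WT MEF, 834 (4.63%) had no peak in WT MEF with dox, and 403 of these 834 were members (48.3%, interval 44.9 to 51.7). In the mirror case 704 peaks (3.91%) had no peak in Utx-KO MEF with dox, and 273 of these were found in WT MEF with dox (38.8%, interval 35.2 to 42.4). A further 431 peaks were missing with dox in both genotypes, and 16910 were found with dox in both. The order of the 2 shares turned when WT peaks with dox were widened by 2500 bp on each side, to 37.8% for members and 50.3% for the mirror case. With both dox lists widened they were 39.6% and 40.4%. The counts follow from the rule, and 96.1% of all WT MEF peaks were found in Utx-KO MEF with dox.

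The members came in 2 kinds of about equal number. For 212 of them, called stand-alone, the Utx-KO peak with dox that covered the member met no H3K4me3 peak of WT MEF with dox at all. The other 191 (47.4%, interval 42.6 to 52.3) lay under a broad Utx-KO peak that did meet a WT peak with dox elsewhere along its length. At these, by definition, the region was marked in both genotypes and the Utx-KO peak reached the member while the WT peak did not. The mirror class was made up differently, with 247 stand-alone peaks and 26 (9.52%, interval 6.58 to 13.6) under a shared peak. Stand-alone peaks were thus no more numerous among members, 212, than in the mirror class, 247. The whole list of Utx-KO MEF with dox held 16157 peaks with a median width of 3063 bp. That of WT MEF with dox held 19689 peaks with a median of 2379 bp. Whether this difference between the lists bears on the contrast in shared peaks was not tested.

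The 403 members were covered by 357 peaks of Utx-KO MEF with dox, 172 shared and 185 stand-alone. That list held 920 peaks in all that met no WT peak with dox. A single member lay under 313 of the 357 peaks, 2 members under 42 of them and 3 members under 2. Of the 172 shared peaks, 167 also covered a WT MEF peak that was found in both genotypes with dox. Their median width was 5204 bp in Utx-KO MEF with dox, and the WT peaks they met summed to a median of 2878 bp in WT MEF with dox. The rule favours such a difference, because it asks that the Utx-KO peak reach a site the WT peak does not. For dox peaks that met a WT MEF peak found in both, the Utx-KO median was 3349 bp and the WT median 2848 bp.

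The 2 Utx-KO peaks that covered 3 members each, singled out after their values were seen, show the shared form. At chr6:4451551-4461985 the Utx-KO peak with dox was 10435 bp wide with a score of 3100, while WT MEF with dox had a peak of 1499 bp with a score of 347 inside it. The 3 members lay on either side of that WT peak, with widths of 625, 945 and 651 bp and scores of 65.3, 328 and 97.8 in untreated WT MEF. At chr5:111844142-111854949 the Utx-KO peak was 10808 bp wide with a score of 3100, and the WT peak with dox was 4588 bp wide with a score of 1728. Here all 3 members lay to the same side of the WT peak.

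Distance to the nearest H3K4me3 peak of WT MEF with dox differs between the 2 kinds by their definition, and its size is given as a description. Members under a shared peak lay at a median of 573 bp from it, with a range of 1 to 4167 bp. Stand-alone members lay at a median of 26190 bp, with a range of 775 to 858092 bp. Within 500 bp of a WT peak with dox there were 91 members under a shared peak and no stand-alone member. In the mirror class 13 of 273 peaks lay within 500 bp of a peak of Utx-KO MEF with dox. At the edge of the rule, the member nearest to a WT peak with dox, at chr11:53584936-53585459, missed it by 1 bp. The peak just outside the rule, at chr14:62268851-62269464, met a WT peak with dox by 3 bp.

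**Figure D1:**
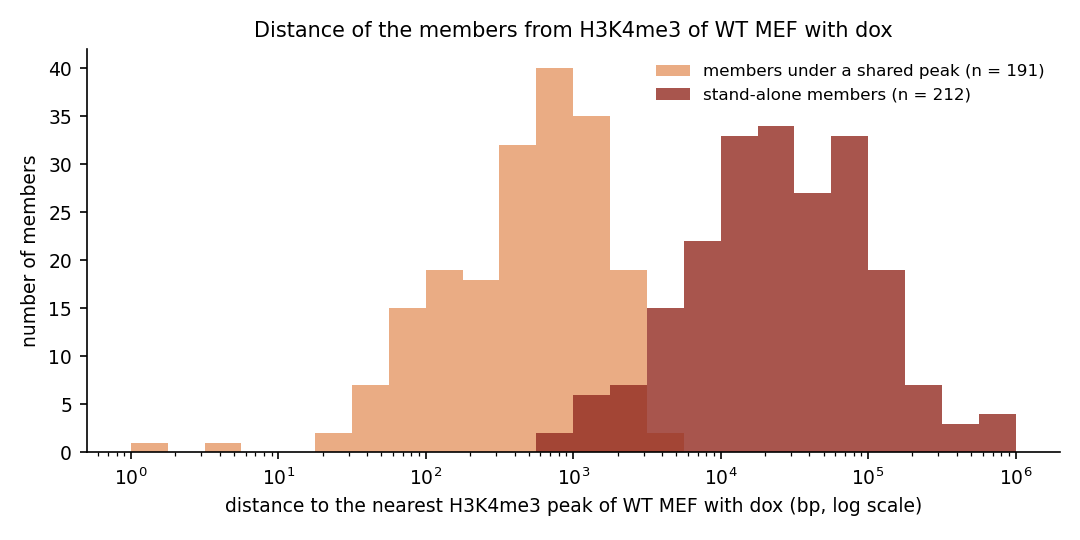
Number of members (vertical axis) by distance to the nearest H3K4me3 peak of WT MEF with dox (horizontal axis, bp, log scale), for the 191 members under a shared peak and the 212 stand-alone members. The medians are 573 and 26190 bp, and the separation follows from how the 2 kinds are defined.

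In untreated WT MEF most members were narrow peaks of low score. Their median width was 653 bp (quartiles 578 and 874, range 369 to 5348), against 1166 bp for the 16910 peaks found in both genotypes with dox. Their median score was 101 (quartiles 79.3 and 166, range 50.3 to 2143), against 308. The mirror class had a median width of 619 bp and a median score of 98.0. The 431 peaks missing in both had medians of 599 bp and 84.1. The typical member was therefore similar in width and score to a peak of the other classes missing from a dox list. It was weaker than a peak found in both.

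The classes parted at high scores. No peak of the mirror class scored above 374, while 31 members did, 25 of them stand-alone, and so did 3 peaks missing in both. That cut is the highest score of the mirror class itself, and 7197 WT MEF peaks in all lay above it. Of the 6673 WT MEF peaks with a score of 400 or more, 25 were members, 20 of these stand-alone, and 3 were missing in both. From 200 to under 400 there were 33 members and 16 mirror peaks. From 100 to under 200 there were 150 and 114, and from 50 to under 100 there were 195 and 143. At a score of 400 or more, the WT MEF peaks found in just 1 of the dox lists were thus all members, in this 1 library per state. They were 25 of 6673 peaks, while members were 2.24% of WT MEF peaks of all scores. Of the 25, 5 lay under a shared peak, where the region was also marked in WT MEF with dox.

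**Figure D2:**
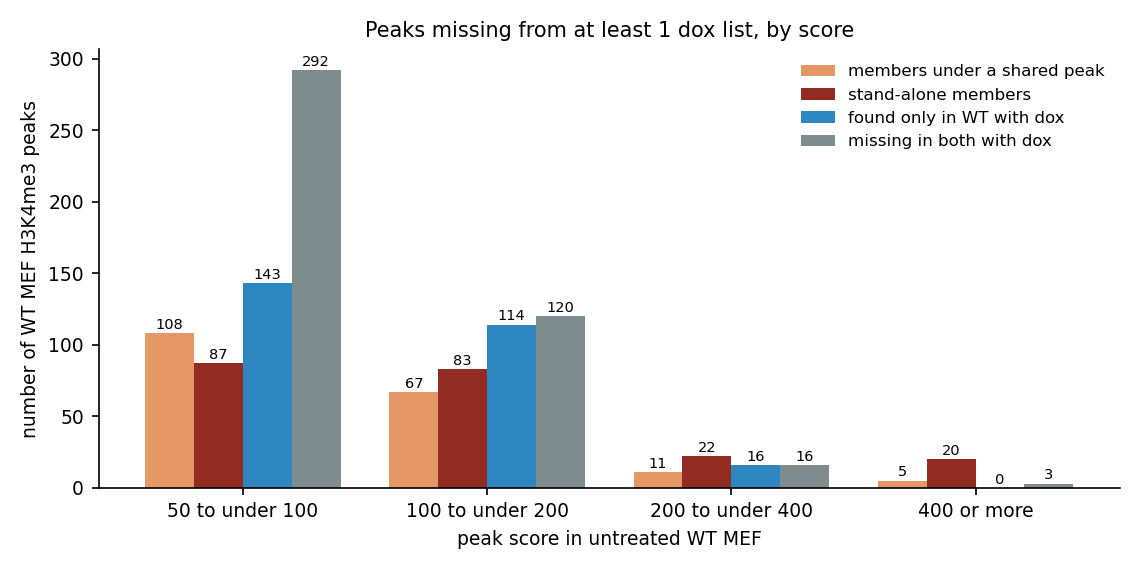
Number of H3K4me3 peaks of untreated WT MEF (vertical axis) in 4 bands of their peak score (horizontal axis), for both kinds of members, for peaks found only in WT MEF with dox and for peaks missing in both dox lists. In the band of 400 or more there are 5 members under a shared peak, 20 stand-alone members, no peak found only in WT with dox and 3 missing in both.

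With dox in Utx-KO MEF, all 403 members lay under a peak wider than themselves, as did 99.9% of the peaks found in both. The peak with dox was a median of 8.14 times as wide as the member for those under a shared peak and 2.93 times for stand-alone members, against 2.92 times for peaks found in both. Stand-alone members were thus close to the peaks found in both in this ratio. Members lay wholly inside the peak with dox in 344 cases (85.4%), against 97.5% of peaks found in both. The 172 shared peaks had a median width of 5204 bp and a median score of 3058, and 48.3% of them scored 3100 or more. The 185 stand-alone peaks had a median width of 2311 bp and a median score of 139, and 1.62% scored 3100 or more. Over the whole list of Utx-KO MEF with dox the medians were 3063 bp and 1414. The peak with dox scored 100 or more for 148 of the 212 stand-alone members and for 190 of the 191 under a shared peak. Of the 212, 93 scored 100 or more both in Utx-KO MEF with dox and in untreated WT MEF.

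The 10 highest scoring members were all stand-alone and all had a peak in untreated Utx-KO MEF. For 8 of them no pluripotent list had a peak. The strongest, chr1:45368502-45373079, scored 3100 over 7090 bp in Utx-KO MEF with dox and had no peak in WT MEF with dox, where the nearest was 184685 bp away. In untreated cells it had peaks of 3100 and 324 in Utx-KO MEF and scored 2143 over 4578 bp in WT MEF. At chr2:125859998-125865345 the score was 3100 over 7051 bp in Utx-KO MEF with dox, 3100 over 4971 bp in untreated Utx-KO MEF and 1810 over 5348 bp in untreated WT MEF. Neither region had H3K4me3 in an iPS clone or in ESC, so their H3K4me3 was seen in fibroblasts alone.

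At chr18:61204604-61208098 the score was 3100 over 5668 bp in Utx-KO MEF with dox, 3019 in untreated Utx-KO MEF and 1556 in untreated WT MEF. At chr6:136822439-136824387 it was 1596 over 4013 bp in Utx-KO MEF with dox, 1196 in untreated Utx-KO MEF and 977 in untreated WT MEF. Both lacked H3K4me3 in all 4 pluripotent lists, and at each the peak with dox was the widest of the 3. The next in rank were not all strong with dox. At chr3:54164377-54166908 the score was 335 in Utx-KO MEF with dox, 1489 in untreated Utx-KO MEF and 923 in untreated WT MEF. At chr11:86413509-86415831 it was 92.5 in Utx-KO MEF with dox, 178 in untreated Utx-KO MEF and 895 in untreated WT MEF.

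The 2 of the 10 with H3K4me3 in pluripotent cells had it in the aberrant iPS clones and not in ESC. At chr4:63704766-63708186 the score was 2594 in Utx-KO MEF with dox, 1171 in untreated Utx-KO MEF and 874 in untreated WT MEF, and the clones had peaks of 146 and 52.7. At chr5:31215803-31218004 the score was 2289 in Utx-KO MEF with dox, 2734 in untreated Utx-KO MEF and 848 in untreated WT MEF, and the clones had peaks of 81.5 and 162. The peaks in the clones were at most 1787 bp wide, narrower than the 5578 and 4311 bp in Utx-KO MEF with dox. The remaining 2, chr2:163646794-163649488 and chr3:70609019-70611350, scored 565 and 227 in Utx-KO MEF with dox, 771 and 685 in untreated WT MEF, and were split into several peaks in untreated Utx-KO MEF.

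**Figure D3:**
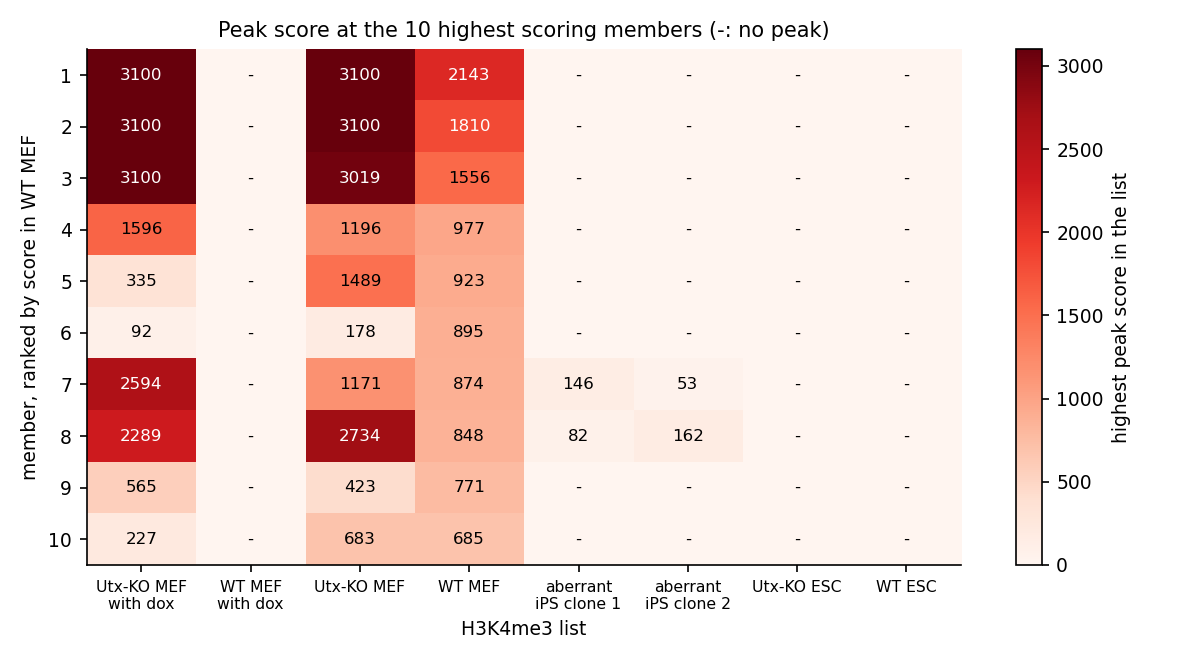
Highest H3K4me3 peak score (colour and number) in each of the 8 lists (columns) at the 10 members with the highest score in untreated WT MEF (rows, by rank), with a dash where the list has no peak. Peaks are present in Utx-KO MEF with dox and in untreated MEF of both genotypes, absent from WT MEF with dox by the rule, and present in the iPS clones at ranks 7 and 8 only.

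Untreated Utx-KO MEF, a list the rule did not use, had a peak at 235 of the 403 members (58.3%, interval 53.4 to 63.0), against 88.0% of all WT MEF peaks. The share was 68.4% (61.9 to 74.3) for stand-alone members and 47.1% (40.2 to 54.2) for those under a shared peak. It was 19.0% (14.8 to 24.1) in the mirror class and 16.7% (13.5 to 20.5) for peaks missing in both. Members were thus more often present in untreated Utx-KO MEF than the mirror class and the peaks missing in both. They were less often present than the 91.6% of peaks found in both. The margins were wider than the intervals, which cover counting error over peaks of 1 library. The rule favours this order, because members have a peak in Utx-KO MEF with dox by selection and those lower classes have none. The share also followed score, with 50.3% of members below a score of 100 and 24 of 25 members at 400 or more. In the mirror class it was 18.2% below 100.

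H3K4me3 at members was uncommon in pluripotent cells. Peaks were found at 52 members in iPS clone 1 (12.9%, interval 9.98 to 16.5) and at 100 in iPS clone 2 (24.8%, 20.8 to 29.3), against 87.5% and 92.3% of all WT MEF peaks. Utx-KO ESC had a peak at 49 (12.2%, 9.32 to 15.7) and WT ESC at 53 (13.2%, 10.2 to 16.8), against 86.3% and 86.4% of all WT MEF peaks. None of these 4 lists had a peak at 296 members (73.4%, 68.9 to 77.5), against 7.13% of all WT MEF peaks. The share was 83.1% (79.2 to 86.3) for peaks missing in both and 37.7% (32.2 to 43.6) in the mirror class. The members were thus in the main H3K4me3 peaks of fibroblasts that ESC lacked, with or without Utx. The same held for the peaks missing in both, so this trait was not particular to members.

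The share in ESC was low for members of every score. Among peaks below a score of 100, WT ESC had H3K4me3 at 13.3% of members and at 76.1% of peaks found in both. At 400 or more it was 2 of 25 members (8.00%) and 97.5%. In Utx-KO ESC the values were 11.8% and 75.9% below 100, and 8.00% and 97.5% at 400 or more. The share in ESC therefore stayed between 8.00% and 18.2% for members in all 4 score bands and both ESC lists.

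The mirror class was present more often in pluripotent cells than the members. It had H3K4me3 at 39.9% (34.3 to 45.8) of its peaks in iPS clone 1, 60.4% (54.5 to 66.1) in iPS clone 2, 29.3% (24.2 to 35.0) in Utx-KO ESC and 25.6% (20.8 to 31.1) in WT ESC. Over peaks of all scores, none of these intervals met that of the members in the same list. Below a score of 100 the intervals for WT ESC overlapped, at 13.3% (9.26 to 18.8) of members and 22.4% (16.3 to 29.9) of the mirror class. In Utx-KO ESC they were apart there, at 11.8% (7.99 to 17.1) and 25.9% (19.4 to 33.6). Peaks missing in both were present least often, at 6.96%, 13.2%, 5.57% and 4.41% in the same order. In ESC presence, members therefore stood between peaks missing in both dox lists and peaks found only in WT MEF with dox.

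**Figure D4:**
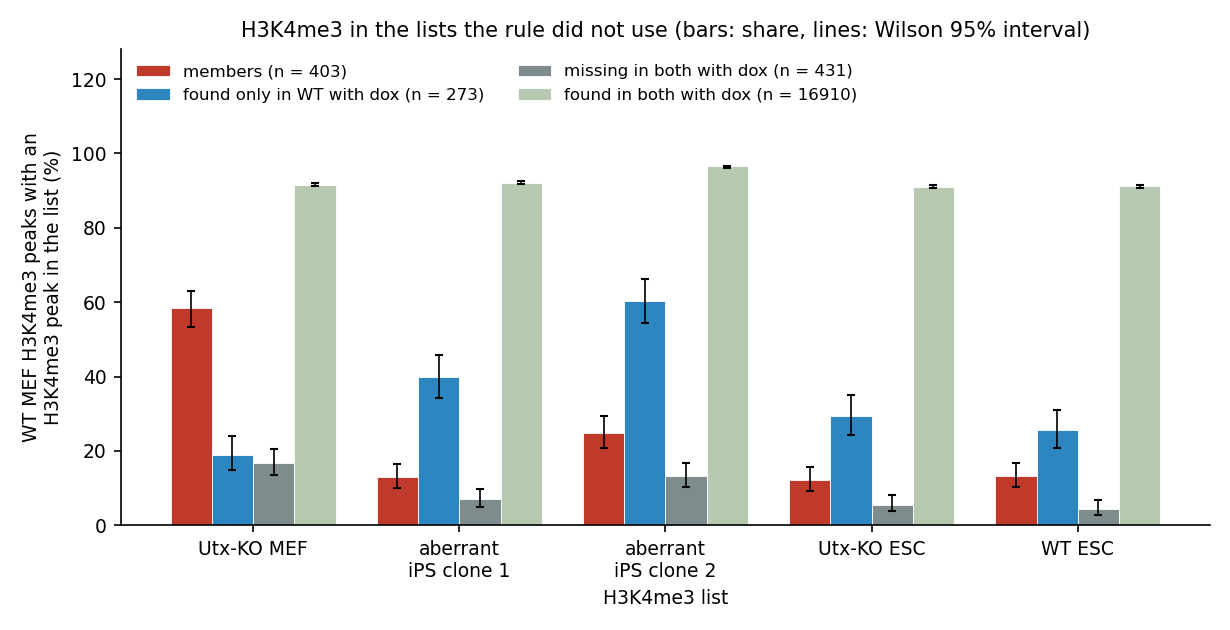
Share of H3K4me3 peaks of untreated WT MEF (vertical axis, %) that overlap an H3K4me3 peak in the 5 lists the rule did not use (horizontal axis), for the 403 members and the 3 other classes. Lines are Wilson 95% intervals, and the members reach 58.3% in Utx-KO MEF and 12.2% to 24.8% in the 4 pluripotent lists.

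Both ESC lists carried 40 members (9.93%), 1 of them alone carried 22, and neither carried 341 (84.6%). Of all WT MEF peaks, 84.3% were in both ESC lists and 11.7% in neither. The share in neither was 66.3% for the mirror class and 92.8% for peaks missing in both dox lists. Both iPS clones carried 50 members (12.4%, against 87.3% of all WT MEF peaks) and neither carried 301. Clone 1 held 2 members that clone 2 lacked and clone 2 held 50 that clone 1 lacked, and clone 2 also had the longer list, with 28232 peaks against 23388. An iPS clone but neither ESC list carried 45 members (11.2%, interval 8.45 to 14.6), and both clones but neither ESC list carried 16 (3.97%). Over all WT MEF peaks these shares were 4.53% and 1.86%. They were higher in the mirror class, at 28.6% and 11.0%, and were 9.74% and 1.16% for peaks missing in both. The reverse, a peak in ESC and in neither clone, applied to 5 members (1.24%, against 0.350% of all WT MEF peaks). The clones were derived from Utx-KO fibroblasts, the genotype in which the members had a peak with dox by the rule. No peak was found in either clone at 74.7% of the members, against 7.48% of all WT MEF peaks. The share was 38.5% in the mirror class and 84.5% for peaks missing in both.

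A small group of members was marked nearly everywhere. All 8 lists but WT MEF with dox had H3K4me3 at 16 members (3.97%, interval 2.46 to 6.35), 12 of them stand-alone. Of all WT MEF peaks, 77.8% had H3K4me3 in all 5 lists the rule did not use, so members were far less often so marked. The share was 2.56% (1.25 to 5.20) in the mirror class. Among the 5 with the highest score was chr9:20820361-20821675, which scored 1043 in Utx-KO MEF with dox, 345 in untreated Utx-KO MEF and 397 in untreated WT MEF. Its score was 2069 and 2092 in the iPS clones, 1326 in Utx-KO ESC and 951 in WT ESC, and the nearest peak of WT MEF with dox lay 11695 bp away. At chr1:173180445-173182875 the score was 826 in Utx-KO MEF with dox, 684 in untreated Utx-KO MEF and 428 in untreated WT MEF, and a WT peak with dox lay 1514 bp away. It was 392 in Utx-KO ESC and 167 in WT ESC. Of the others, chr6:29423567-29424473 and chr8:107154637-107155265 were stand-alone and chr13:41015100-41015738 lay under a shared peak.

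Where ESC did have H3K4me3 at a member, the score and width of the whole ESC peak differed by kind of member. Peaks of Utx-KO ESC that met members under a shared peak had a median score of 2237 and a median width of 3913 bp, while those that met stand-alone members had 134 and 1232 bp. In WT ESC the medians were 1675 and 4478 bp for members under a shared peak, against 72.1 and 1238 bp for stand-alone members. Over the whole lists the median scores were 538 in Utx-KO ESC and 421 in WT ESC. The peaks behind these values were few, 17 and 26 in Utx-KO ESC and 21 and 28 in WT ESC. An ESC peak can reach past the member, so its score is not that of the member alone. Of the 172 shared peaks of Utx-KO MEF with dox, 167 also covered a WT MEF peak found in both.

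H3K27me3 was rare at the members in fibroblasts. It was found at 4 members in Utx-KO MEF with dox (0.993%, against 3.67% of all WT MEF peaks), and at 3 in untreated Utx-KO MEF (0.744%, against 1.50%). Untreated WT MEF had it at 2 (0.496%, against 1.48%). In WT MEF with dox H3K4me3 was absent by the rule. H3K27me3 was found there at 0 of 403 members (interval up to 0.944%), against 0.228% of all WT MEF peaks. That limit lies above the share over all WT MEF peaks, so the 2 cannot be told apart. The list was short, with 938 peaks of which 2.35% scored 100 or more. The mirror class differed: in Utx-KO MEF with dox, the state in which it lacked H3K4me3, 50 of its 273 peaks had an H3K27me3 peak (18.3%, interval 14.2 to 23.3). It also had the mark in untreated cells, at 12.1% (8.74 to 16.5) in Utx-KO MEF and 7.69% (5.09 to 11.5) in WT MEF. By definition its H3K4me3 was present in untreated WT MEF, while untreated Utx-KO MEF had H3K4me3 at 19.0% of its peaks.

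In ESC the mark was more common at members. H3K27me3 was found at 117 members in Utx-KO ESC (29.0%, interval 24.8 to 33.6), against 19.4% of all WT MEF peaks, and at 15 in WT ESC (3.72%, 2.27 to 6.05), against 4.43%. The mirror class had higher shares, 37.0% (31.5 to 42.9) in Utx-KO ESC and 9.89% (6.89 to 14.0) in WT ESC, though in Utx-KO ESC the intervals overlapped those of the members. The Utx-KO ESC list was by far the longer, with 36231 peaks against 5679. In Utx-KO ESC the share was 37.7% (31.1 to 44.7) for members under a shared peak and 21.2% (16.3 to 27.2) for stand-alone members. Below a score of 100 the share in Utx-KO ESC was 27.2% for members and 28.4% for all WT MEF peaks. At 400 or more it was 10 of 25 members (40.0%, interval 23.4 to 59.3) and 12.2%. The iPS clones, with 135 and 737 H3K27me3 peaks in all, had the mark at no member, against 0.0222% and 0.111% of all WT MEF peaks.

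Among the 5 highest scoring members with H3K27me3 in any list, all had it in Utx-KO ESC alone. At chr18:61204604-61208098 Utx-KO ESC had H3K27me3 peaks with scores of 371 and 130, and at chr4:63704766-63708186 peaks with scores of 267 and 68.9. The scores were 59.5 at chr2:125859998-125865345, 72.4 at chr6:136822439-136824387 and 83.1 at chr11:75234965-75236140. All 5 lacked H3K4me3 in Utx-KO ESC, so these sites carried H3K4me3 in fibroblasts and H3K27me3 in Utx-KO ESC.

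**Figure D5:**
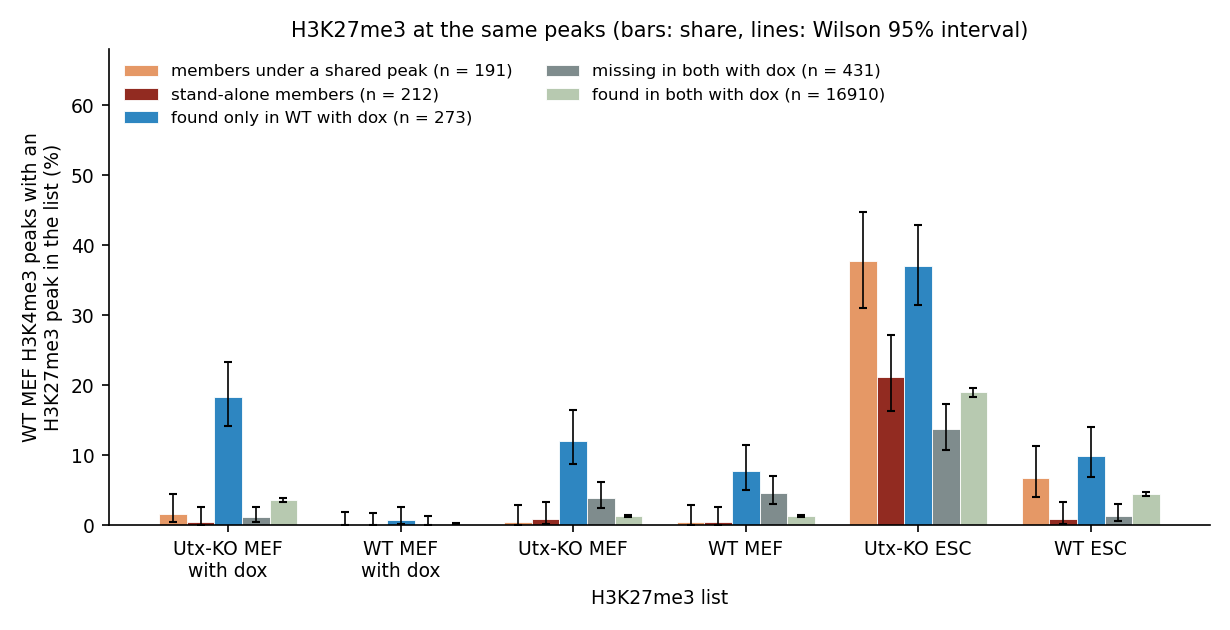
Share of H3K4me3 peaks of untreated WT MEF (vertical axis, %) that overlap an H3K27me3 peak in 6 lists (horizontal axis), for both kinds of members and the 3 other classes, with Wilson 95% intervals as lines. Members are at or below 1.57% in the fibroblast lists and at 37.7% (under a shared peak) and 21.2% (stand-alone) in Utx-KO ESC.

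UTX, mapped in WT cells, was hardly found at the members. No member met a UTX peak in WT MEF with dox or in untreated WT MEF, against 0.860% and 0.200% of all WT MEF peaks. The Wilson interval of 0 of 403 reaches 0.944%, above both of these shares, so members and all peaks cannot be told apart. With dox the mirror class and the peaks missing in both met no UTX peak either. In untreated WT MEF the mirror class met none, and 3.48% (2.12 to 5.66) of the peaks missing in both did. WT ESC had a UTX peak at 4 members (0.993%, interval 0.387 to 2.52), against 2.72% of all WT MEF peaks. These were chr9:35232005-35233245, chr5:5707874-5708843, chr2:71493784-71494398 and chr18:66084187-66084824, where the UTX peaks scored 52.3, 55.6, 130 and 166. None of the 4 had H3K4me3 in ESC. The UTX lists of fibroblasts were short or weak, with 3540 peaks in WT MEF with dox, of which 0.452% scored 100 or more, and 372 in untreated WT MEF.

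The members lay on all autosomes and on X. There were 12 on X (2.35% of its WT MEF peaks) and none among the 7 WT MEF peaks on Y. On autosomes they made up from 0.475% of the WT MEF peaks of chromosome 19, with 3 members, to 4.44% of those of chromosome 18, with 23. Another member lay within 10000 bp for 98 of the 403, many of them under the same Utx-KO peak with dox, and within 100000 bp for 117. Most members thus had no other member within 100000 bp. Other WT MEF peaks were not counted here, and 191 members lay under a broad shared peak.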

How the data were processed

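ChIP-seq peak lists of 19 immunoprecipitated samples were analysed. The whole-cell extracts had no list among the files used. Each deposited list gives chromosome, start, end and a score per peak. CASAVA 1.8.2, Bowtie 0.12.5, MACS 1.4.1 and build mm9 are named in the submitters' processing notes. Their settings and the control of each list are not given in the sources used here. Groups came from sample titles.

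Coordinates are 1-based mm9. Left out was 1 peak on another chromosome. Overlaps of at least 1 bp were counted with Python 3.11.15, numpy 2.4.6 and pandas 2.3.3, and figures were drawn with matplotlib 3.10.9. The code was tested on simulated data (10 of 10 placements recovered) and against bedtools 2.31.1 (38 of 38 counts equal). The gene and promoter tables at hand are of GRCm38, another build, so no gene name or sequence is given.

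The regions named are the 10 members with the highest score in WT MEF, the 5 highest in 7 lists, in fibroblast lists only and with H3K27me3, and members on UTX. The members, classes and tests were chosen with earlier results of these data known. The split into shared and stand-alone peaks and the score bands of 50, 100, 200 and 400 are descriptive. Peaks, not cultures, underlie each interval.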

Additional observations from a re-analysis of the deposited data

How the results depend on the processing

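With 1 library per state and peak lists in place of reads, the counts rest on the thresholds of the authors' lists, and a peak just under a score of 50 counts as absent. The member count was 403. It was 256 at a score of at least 100 in every list, 213 with WT peaks with dox widened by 2500 bp, and 212 without members under a shared peak. It was within 1.5 times of 403 with a 50% overlap, equal peak numbers and autosomes only. Of peaks missing in WT MEF with dox, 48.3% were found in Utx-KO MEF with dox. That share became 53.0% at a score of at least 100, 37.8% with widened WT peaks and 64.4% with equal peak numbers (16157 per list). The mirror share, 38.8%, became 47.1%, 50.3% and 29.9%. Presence in untreated Utx-KO MEF, 58.3%, became 50.1% with a 50% overlap, 67.1% with widened WT peaks, 40.1% with equal peak numbers and 68.4% for stand-alone members. Presence in iPS clone 1, 12.9%, became 22.3% at a score of at least 100 and 17.5% for stand-alone members, and in clone 2, 24.8%, it became 32.4% at that score and 18.6% with equal peak numbers. Presence in Utx-KO and WT ESC stayed within its interval under all 6 of these alternatives.

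Further alternatives were chosen after seeing the data. With both dox lists widened by 2500 bp the member count was 223 and the 2 shares came to 39.6% and 40.4%, so the share for members was no longer above the mirror share, and presence in Utx-KO MEF was 64.1%. With Utx-KO peaks with dox widened alone, the share for members was 58.2%, the mirror share 38.8% and presence in Utx-KO MEF 50.1%. Among WT MEF peaks also found in untreated Utx-KO MEF there were 235 members. There the share for members was 76.5% (interval 71.5 to 80.9) and the mirror share 41.9% (33.6 to 50.7). This filter asks for a peak in Utx-KO cells, the genotype in which members have a peak with dox by the rule. It therefore favours the share for members. No paired analysis was possible because each state had 1 library and no result comes from a test.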

Other observations

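The same rule was applied to the H3K4me3 peaks of untreated Utx-KO MEF in place of WT MEF, with the same dox lists. Of its 22056 peaks, 1374 had no peak in WT MEF with dox, and 688 of these were found in Utx-KO MEF with dox (50.1%, interval 47.4 to 52.7). Another 962 had no peak in Utx-KO MEF with dox, and 276 of these were found in WT MEF with dox (28.7%, 25.9 to 31.6). Of the 688 peaks, 213 (31.0%) overlapped a member, and 198 of the 403 members (49.1%) overlapped one of them. The 688 peaks had H3K4me3 at 12.1% (9.84 to 14.7) and 25.4% (22.3 to 28.8) in the iPS clones, 12.6% (10.4 to 15.3) in Utx-KO ESC and 13.8% (11.4 to 16.6) in WT ESC. The 276 peaks had it at 27.9% (22.9 to 33.5) and 51.8% (45.9 to 57.6) in the iPS clones, 19.2% (15.0 to 24.3) in Utx-KO ESC and 16.3% (12.4 to 21.1) in WT ESC. Shares over all 22056 peaks were not computed, so whether these values are low or high for that list is not known. From this starting list the intervals were apart in both iPS clones and overlapped in both ESC lists. Those from WT MEF peaks of all scores were apart in all 4. Both starting lists share the 2 dox lists, so these values are not a separate check of dox treatment.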
